A study of Homo sapiens with 6 samples.

Results

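The apolipoprotein L (APOL) family has 6 genes in humans, APOL1 to APOL6, and all 6 lie on chromosome 22. Its members were taken as every probe of the array whose platform annotation names one of these genes. This gave 6 of the 18848 genes named on the array and 13 of its 48784 probes: 2 for APOL1, 4 for APOL2, 3 for APOL3, 2 for APOL4, 1 for APOL5 and 1 for APOL6. SW1353, a human chondrosarcoma line used as a stand-in for chondrocytes, was kept without serum for about 20 h. The 3 IL-1 samples then received the cytokine interleukin-1 alpha, here called IL-1, for 6 h at 0.5 ng/ml, and the 3 control samples did not. Total RNA of each sample was hybridised to 1 Illumina bead array. The labels do not say whether replicates were separate cultures, so the spread behind each p-value may be technical. The whole comparison also rests on 1 tumour line.

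APOL proteins share a membrane-active region that can open ion channels or loosen lipid bilayers. APOL1 is the secreted member; it travels on high-density lipoprotein and lyses African trypanosomes. The other members lack a secretion signal and stay inside the cell, and several of the genes are known to be induced by interferons and inflammatory cytokines. The comparison asks which family members differ in RNA level after 6 h of IL-1.

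Before the results, 3 features of the arrays bear on them. The sample titles come in 2 kinds: replicates 1 and 2 of each group are titled Allstars and replicate 3 of each group is titled Sample, and the labels do not say what this means. Between 11954 and 13070 probes per IL-1 array and between 12650 and 13357 per control array were well above background, defined as a detection p under 0.01. The median signal of those probes was 7.38 and 7.12 times that of the other probes on the Sample arrays (IL-1 and control). On the Allstars arrays it was 3.19 to 3.80 times with IL-1 and 3.50 to 4.22 times in controls. Of the markers, 6 of 7 mesenchymal genes were well above background, among them VIM and COL1A1. Of 7 cartilage genes this held only for SOX9, and COL2A1 and ACAN were not well above background on any array. SOX9 itself fell by 0.94 on the log2 scale with IL-1 (limma adjusted p = 0.0212); its part in the APOL results was not tested. SW1353 as measured here therefore carried mesenchymal markers and little of the cartilage set. The response to IL-1 was present, since NFKBIA, the NF-kB inhibitor, averaged a log2 signal of 13.09 with IL-1 and 10.11 in controls, a log2 fold change of 2.98 ± 0.20 (SE; limma adjusted p = 7.65e-05).

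After IL-1, APOL3, APOL2 and APOL6 rose. APOL1, APOL4 and APOL5 had no probe that passed the detection filter, so the main fit did not test them. The 4 probes that rose, 2 of them for APOL2, were well above background on every IL-1 array and on no control array. Such probes pass a filter on detection only because of the IL-1 arrays: of 196 kept probes with no control array well above background, 90.3% rose. The family was therefore also read from a fit over all 48784 probes, with no filter. There 4 of 13 APOL probes rose and 0 fell, against 1.40% of all probes that rose and 0.324% that fell (limma, Benjamini-Hochberg adjusted p under 0.05). Among the 13017 probes kept by the filter (detection p under 0.01 on at least 3 arrays), 5.71% rose and 2.38% fell.

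**Figure D1:**
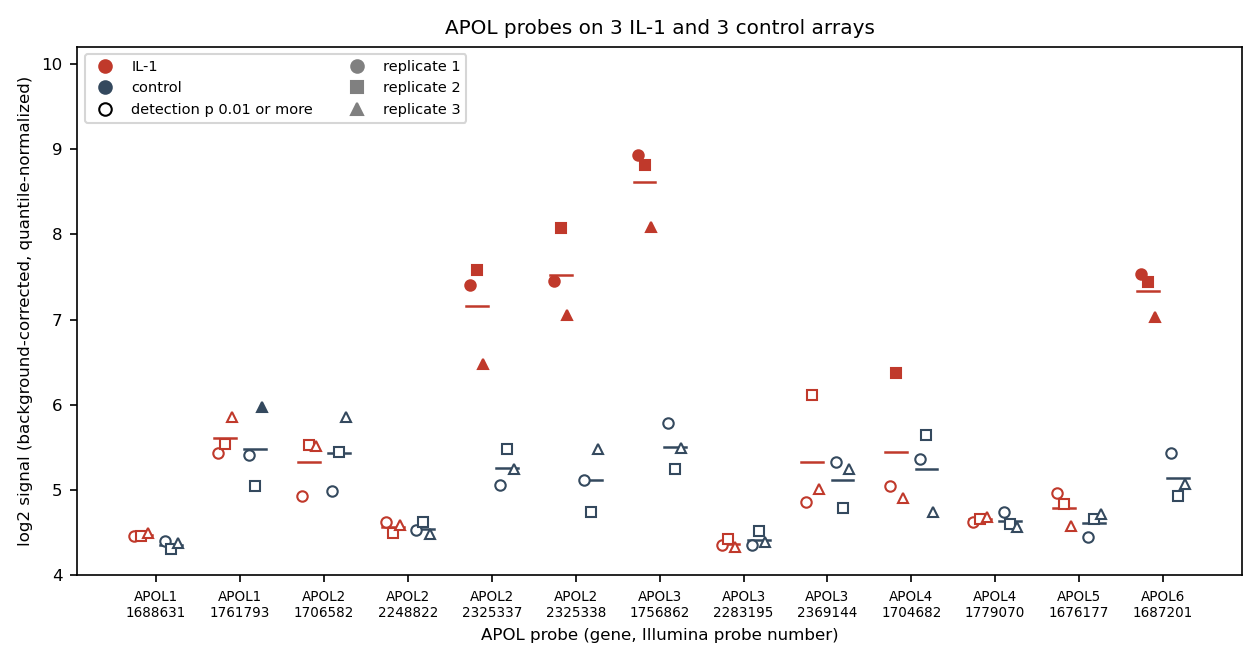
Log2 signal (background-corrected and quantile-normalized) of the 13 APOL probes, with the 3 IL-1 arrays in red left of the 3 control arrays in blue; bars are group means and open symbols are arrays on which the probe was not well above background. The IL-1 arrays of APOL3 ILMN_1756862, both APOL2 probes ILMN_2325337 and ILMN_2325338, and APOL6 ILMN_1687201 sit between 6.48 and 8.93, above all control arrays of those probes.

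APOL3 encodes an intracellular protein that, in human cells primed with interferon gamma, dissolves the inner membrane of bacteria that reach the cytosol. Its probe ILMN_1756862, designed to transcript NM_145641, had deposited signals of 331, 236 and 571 on IL-1 arrays 1, 2 and 3, against 93.6, 69.3 and 142 on control arrays 1, 2 and 3. After background correction and quantile normalization these were log2 signals of 8.93, 8.82 and 8.09 with IL-1 and 5.78, 5.24 and 5.50 in controls. Each IL-1 array lay above all control arrays, and the IL-1 array of the Sample titles was the lowest of its group. The means were 8.61 ± 0.46 with IL-1 and 5.51 ± 0.27 in controls (SD, n = 3 each), a log2 fold change of 3.11 ± 0.27 (SE; limma adjusted p = 0.000336). In bulk RNA, more cells carrying a transcript and more of it per cell cannot be told apart. The APOL genes are related in sequence, and whether a probe of 1 also reads another was not tested.

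A fold change against a group with no array well above background has only a lower bound. The bound sets the IL-1 mean against the control mean after each control value is raised to the lowest signal well above background on its array. By this measure APOL3 was at least 6.30-fold higher with IL-1. The bound holds only for this background correction: the log2 fold change was 2.01 without it and 1.78 with the authors' deposited values, both smaller than the bound. In the fit without a filter the adjusted p of APOL3 was 7.51e-05 (limma). Over 9078 genes tested, each by its brightest kept probe, the median log2 fold change was -0.11.

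The other APOL3 probes did not follow. ILMN_2369144, annotated to the same transcript NM_145641, had log2 signals of 4.86, 6.12 and 5.00 on IL-1 arrays 1, 2 and 3, and 5.32, 4.79 and 5.24 on the control arrays. Its groups overlapped, no array was well above background, and IL-1 replicate 2 alone stood above the control arrays. The difference was 0.21 on the log2 scale (limma without a filter, adjusted p = 0.928). ILMN_2283195, designed to NM_014349, lay between 4.33 and 4.43 with IL-1 and between 4.35 and 4.51 in controls, with detection p of at least 0.693 on every array. The APOL3 rise thus rests on 1 of 3 probes, and why probes annotated to 1 transcript differ was not tested.

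APOL2 encodes an intracellular member that is found at the endoplasmic reticulum. Its probe ILMN_2325338 had log2 signals of 7.46, 8.07 and 7.05 on the IL-1 arrays, against 5.12, 4.74 and 5.47 on the control arrays. The second probe, ILMN_2325337, had 7.41, 7.58 and 6.48 with IL-1, against 5.06, 5.48 and 5.24 in controls. Both probes are annotated to NM_145637, and on both the IL-1 arrays lay above the control arrays, with replicate 3 the lowest IL-1 array. In deposited signals, ILMN_2325338 gave 147, 159 and 306 with IL-1 and 78.4, 60.2 and 141 in controls, so the array scale of the Sample titles is visible before normalization.

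ILMN_2325338 averaged 7.53 ± 0.51 with IL-1 and 5.11 ± 0.37 in controls (SD, n = 3 each), a log2 fold change of 2.42 ± 0.33 (SE; limma adjusted p = 0.00318). This is at least 2.97-fold. As for APOL3, the bounds of both APOL2 probes hold only for this background correction. ILMN_2325337 averaged 7.15 ± 0.59 and 5.26 ± 0.21 in the same order, a log2 fold change of 1.89 ± 0.33 (limma adjusted p = 0.0113) and at least 2.29-fold. The call of ILMN_2325337 was lost without IL-1 replicate 1 (limma adjusted p = 0.0658), without control replicate 1 (limma adjusted p = 0.0565) and with equal array medians in place of quantile normalization (limma adjusted p = 0.131). ILMN_2325338 kept its call under each of these, so APOL2 as a gene did too.

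The remaining APOL2 probes were not well above background. ILMN_1706582, designed to NM_030882, had log2 signals of 4.93, 5.52 and 5.51 with IL-1, against 4.99, 5.44 and 5.85 in controls, which overlap. ILMN_2248822, the third probe for NM_145637, had 4.62, 4.49 and 4.58 with IL-1, against 4.53, 4.62 and 4.48 in controls. Their differences were -0.11 and 0.02 on the log2 scale (limma without a filter, adjusted p = 0.961 and 0.968). So 2 of 4 APOL2 probes rose.

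APOL6 encodes an intracellular member with a BH3-like motif that causes cell death when it is overexpressed in human tumour cells. Its single probe ILMN_1687201 had log2 signals of 7.54, 7.44 and 7.03 on the IL-1 arrays, against 5.43, 4.93 and 5.07 on the control arrays. The groups did not overlap, and the IL-1 arrays were closer together than those of the APOL2 and APOL3 probes that rose, with an SD of 0.27. The means were 7.34 with IL-1 and 5.14 in controls (SD 0.26), a log2 fold change of 2.19 ± 0.25 (SE; limma adjusted p = 0.00140). APOL6 was at least 2.60-fold higher with IL-1, a bound that again holds only for this background correction. Since the control side of APOL2, APOL3 and APOL6 was not well above background, these bounds do not rank the responses of the 3 genes.

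APOL1, the secreted trypanolytic member, had no probe that passed the filter and was not tested in the main fit. Its brighter probe ILMN_1761793 had log2 signals of 5.43, 5.54 and 5.85 on the IL-1 arrays, against 5.41, 5.04 and 5.97 on the control arrays. The groups overlapped, and the highest value in either group was that of control replicate 3, the only array on which this probe was well above background. The difference was 0.13 ± 0.27 (SE; limma without a filter, adjusted p = 0.950). The other probe, ILMN_1688631, had 4.46, 4.46 and 4.49 with IL-1, against 4.39, 4.30 and 4.38 in controls. The IL-1 arrays lay above the control arrays, as they did for 5 of the 13 APOL probes, 6.48% of all probes and 10.8% of kept probes. The difference was 0.11 on the log2 scale, all detection p-values were at least 0.814, and the adjusted p of the fit without a filter was 0.104 (limma). With the title series as a block as well, a fit in which 2.92% of all probes rose, it was 0.0274. Both APOL1 probes are annotated to NM_145343, so transcripts that these probes miss were not measured.

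APOL4 and APOL5 were near background. The APOL4 probe ILMN_1704682 had log2 signals of 5.05, 6.37 and 4.90 with IL-1, against 5.36, 5.64 and 4.74 in controls. It was well above background only on IL-1 replicate 2, and the groups overlapped (difference 0.19; limma without a filter, adjusted p = 0.949). The other APOL4 probe, ILMN_1779070, lay between 4.63 and 4.68 with IL-1 and between 4.56 and 4.75 in controls. APOL5, by ILMN_1676177, had 4.97, 4.83 and 4.57 with IL-1, against 4.45, 4.66 and 4.71 in controls (difference 0.18; limma without a filter, adjusted p = 0.822). Over the 9 APOL probes that the filter removed, differences ranged between -0.11 and 0.21. The APOL probes that rose had control means between 5.11 and 5.51, near those of APOL1 ILMN_1761793 (5.47) and APOL4 ILMN_1704682 (5.25). A rise as large as theirs could thus be read from such control signals, and these probes showed none. Smaller changes and falls may go unseen at such signals with 3 arrays per group. These values do not show that the genes were silent.

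The 4 probes that rose did so in both kinds of title. On the Allstars arrays the log2 fold changes were 3.36 for APOL3, 2.84 and 2.22 for APOL2 (ILMN_2325338 and ILMN_2325337) and 2.31 for APOL6. Each passed in a fit of those 4 arrays alone (limma adjusted p at most 8.80e-05). In that fit 1400 of 13017 kept probes rose and 1888 fell. On the pair of Sample arrays, which allow no test, the differences were 2.59, 1.58, 1.23 and 1.96 in the same order. All 4 were smaller there. The interaction of treatment and title series, with 1 Sample array per group, did not pass for any (limma adjusted p = 0.962, 0.953, 0.962 and 0.996). It passed for 0 of the 13017 kept probes, of which 676 had an unadjusted p under 0.05, so it does not show that the responses were alike. For APOL2 ILMN_2325338 the Allstars response was larger by 1.26 ± 0.54 (SE; limma unadjusted p = 0.0388). With the title series as a block the 4 probes remained called (limma adjusted p between 2.36e-08 and 7.76e-05). In that fit 12.3% of kept probes rose and 19.6% fell. The 4 probes entered this fit and the Allstars fit only through the IL-1 arrays. Without a filter, and with the same block, their adjusted p was between 1.96e-07 and 8.94e-05 (limma). That fit, chosen after seeing the data, had 1425 of 48784 probes that rose and 1518 that fell.

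The sizes of the changes depend on how background is treated. Without background correction the log2 fold changes were 2.01 for APOL3, 1.35 and 1.01 for APOL2 and 1.17 for APOL6. The authors' deposited log2 values gave 1.78, 1.13, 0.83 and 0.94 in the same order. All of these passed (limma adjusted p at most 0.0456), but in fits that the probes entered only through the IL-1 arrays. Neither setting was run without the detection filter. The direction held, and the sizes moved by over 1.5 times.

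**Figure D2:**
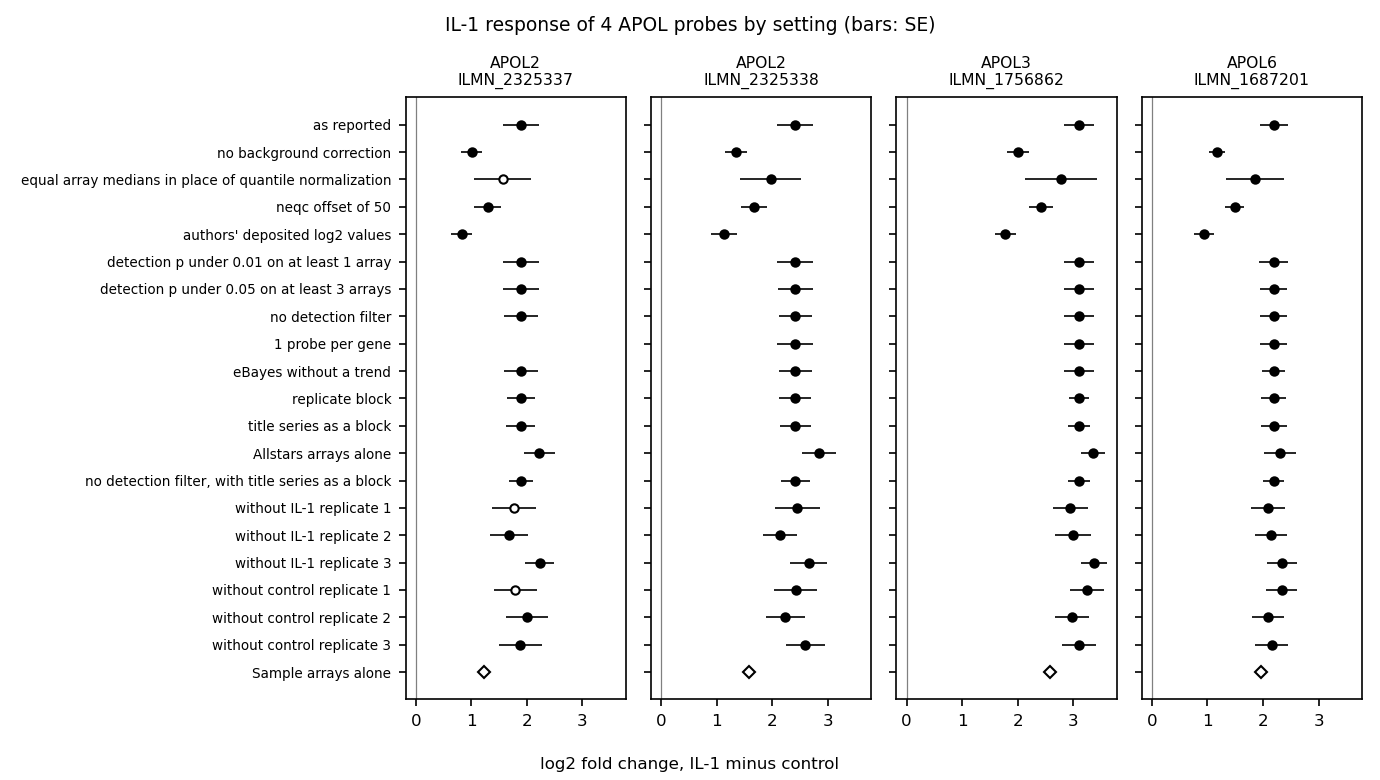
Log2 fold change, IL-1 minus control, of the 4 APOL probes that rose, under each setting on the vertical axis; bars are SE, filled circles passed (adjusted p under 0.05), open circles did not, and diamonds are a pair of arrays with no test. Values lie between 0.83 and 3.37, all above 0, and the open circles are 3 settings of APOL2 ILMN_2325337.

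The genome neighbourhood was read from the RefSeq gene order. Along chromosome 22 the order is APOL6, APOL5, RBFOX2, APOL3, APOL4, APOL2, APOL1 and MYH9. APOL genes that rose thus lie interleaved with APOL genes that the main fit did not test. RBFOX2, a splicing factor gene inside the run, differed by 0.12 ± 0.31 (SE; limma adjusted p = 0.890). MYH9, the non-muscle myosin gene beside APOL1, differed by -0.13 (limma adjusted p = 0.557). Neighbours were the protein-coding genes up to 10 places either side of a member, 21 in all, of which 12 were tested. Of these 0 rose by limma, or 0 at an unadjusted p under 0.05, and 1 fell, against 5.90% and 2.78% of 9078 genes. Their median log2 fold change was -0.18. The 1 that fell was RASD2, a Ras-family GTPase gene, which averaged 4.87 ± 0.16 with IL-1 and 6.63 ± 0.22 in controls (SD, n = 3 each; limma adjusted p = 0.00434), at least 1.45-fold lower. RASD2 was well above background on the 3 control arrays and on no IL-1 array, so it passed the filter only through the controls; without a filter its adjusted p was 0.00118 (limma). With title series as a block 1 neighbour rose, TIMP3, and 5 fell, RASD2, TOM1, FOXRED2, EIF3D and PVALB, the others being named after their values were seen. In that fit 12.3% of kept probes rose and 19.6% fell.

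**Figure D3:**
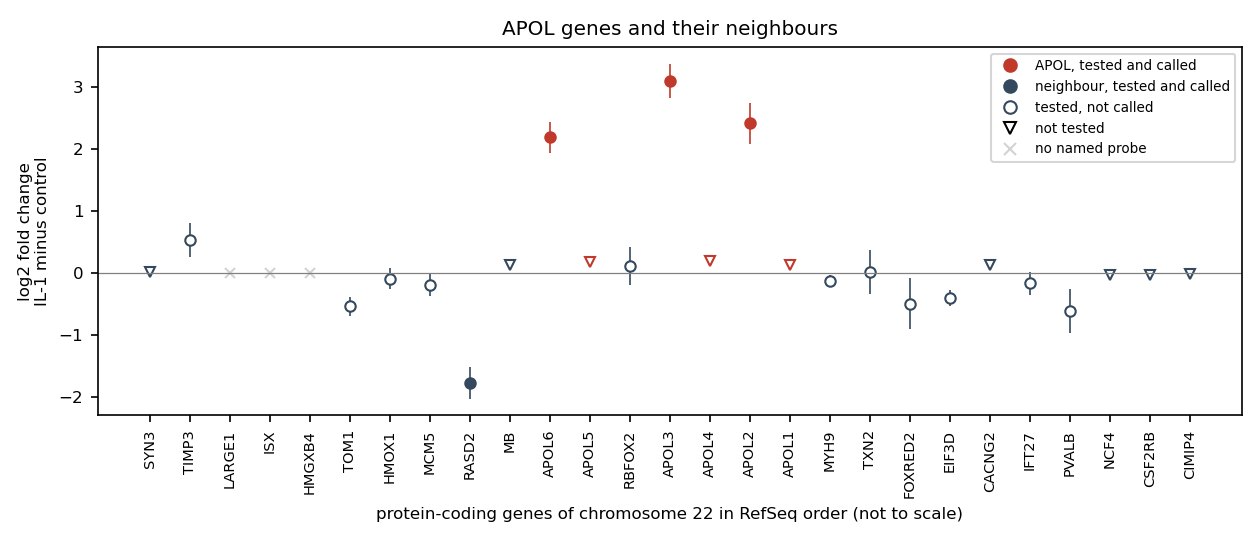
Log2 fold change, IL-1 minus control, of APOL genes (red) and neighbouring protein-coding genes (blue) in RefSeq order along chromosome 22, not to scale; bars are SE, filled circles passed, open circles did not, triangles were not tested and crosses have no named probe. APOL6, APOL3 and APOL2 stand at 2.19, 3.11 and 2.42, and no tested neighbour is above 0.54.

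Apolipoproteins of other families served as a list for the name the APOL genes carry. Of 23 such genes, taken by name or as partners of lipid carriers, 5 were tested. By limma 0 rose and 0 fell, with 0 at an unadjusted p under 0.05. Since 5.90% of all genes tested rose and 2.78% fell, a count of 0 of 5 does not set this list apart. With title series as a block 1 rose, APOO, a mitochondrial protein gene named after its value was seen. In that fit 12.3% of all kept probes rose. The median log2 fold change of the 5 was 0.17. APOE, which carries lipids between cells, averaged 6.75 with IL-1 and 6.86 in controls (log2 fold change -0.12 ± 0.42, SE; limma adjusted p = 0.927). APOA1 and HPR, which accompany APOL1 in the trypanosome lytic particle, were not well above background on any array. APOLD1, counted in this list, is a gene outside the family whose protein holds a similar domain. It was not well above background either (5.68 with IL-1 and 5.36 in controls).

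The family is known as interferon-induced, so regulators of interferon signalling were set beside it. Of 14 tested genes of interferons, their receptors and the JAK-STAT pathway, 7 rose and 0 fell, with a median log2 fold change of 0.77, or 0.71 with the 1 gene not well above background in controls at its bound. Of 9078 genes tested 5.90% rose and 2.78% fell. IRF1, a transcription factor that switches on interferon-induced genes, rose by 2.57 ± 0.24 (SE; limma adjusted p = 0.000437). The kinase gene JAK2 rose by 1.91 ± 0.18 and IRF9, the DNA-binding part of the interferon-activated factor ISGF3, by 1.66 ± 0.14. IFNB1, which encodes interferon beta, averaged 5.86 ± 0.12 with IL-1 and 4.71 ± 0.23 in controls (SD, n = 3 each), was well above background on 1 IL-1 array and was not tested. The count that rose was 1 with equal array medians in place of quantile normalization and 4 with the authors' values. It was 4 of those detected on all 6 arrays and 11 with the replicate number as a block. Over all probes 218, 559 and 1640 of 13017 rose with equal medians, the authors' values and the replicate block. With detection on all 6 arrays 462 of 10716 rose.

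Genes of interferon-induced defence against intracellular pathogens rose in 30 of 31 tested members and fell in 0, with a median log2 fold change of 3.44, also with the 6 genes not well above background in controls at their bounds. Over all genes tested 5.90% rose, and of kept probes without a control array well above background 90.3% did. The count that rose in this list was 21 with equal array medians and 26 with the authors' values. It was 20 with detection on all 6 arrays and 31 with title series as a block. The former filter removes every probe with no control array well above background, so its count is not out of the same members. Over all probes 218, 559 and 1602 of 13017 rose with equal medians, the authors' values and the block. With detection on all 6 arrays 462 of 10716 rose. Like the other lists, this one was chosen with earlier results of these data known. The antiviral effector IFIT2, well above background on every array, had a log2 fold change of 6.32 (limma adjusted p = 7.69e-07). For the antiviral genes OASL and MX2 no control array was well above background, and they were at least 45.1-fold and at least 44.6-fold higher (limma adjusted p = 3.09e-06 and 5.85e-06). GBP1, a guanylate-binding protein that coats bacteria ahead of APOL3 in human cells, averaged 12.72 with IL-1 and 8.91 in controls, a log2 fold change of 3.81 ± 0.47 (SE; limma adjusted p = 0.00200). It was named after its value was seen. Of the check list of NF-kB feedback genes, 9 of 9 tested members rose, against 5.90% of all genes tested. ZC3H12A and NFKBIZ had log2 fold changes of 4.30 and 3.99, and TNFAIP3, with no control array well above background, was at least 18.4-fold higher. That count was 5 with equal array medians and 5 with detection on all 6 arrays. The latter filter leaves out probes such as that of TNFAIP3, so its count is not out of the same 9 members. Over all probes these fits had 218 of 13017 and 462 of 10716 that rose.

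The genes closest to each APOL gene in pattern were found by the distance over the 6 arrays between log2 signals, each less its control mean. For APOL3 these were DHX58, PSMB9 and TLR7, at distances of 0.23, 0.28 and 0.38 on the log2 scale. DHX58 encodes the RNA sensor LGP2, PSMB9 a subunit of the immunoproteasome and TLR7 an endosomal RNA receptor, and their log2 fold changes were 3.24, 3.21 and 3.10. DHX58 and TLR7 were not well above background on the control arrays, and their bounds were at least 7.42-fold and at least 3.49-fold. For APOL6 they were PLEK, WARS1 and CYP1A2, at 0.29, 0.39 and 0.42, of which WARS1 encodes the tryptophanyl-tRNA synthetase. For APOL2 they were ZMYND15, IFI35 and CCL1, at 0.51, 0.52 and 0.60. IFI35 is an interferon-induced gene and CCL1 encodes a chemokine. ZMYND15, CCL1 and CYP1A2 were well above background on no control array, with bounds of at least 2.26-fold, 2.12-fold and 1.56-fold. PLEK was well above background on 1 control array. The distances describe likeness on the same 6 arrays, where size of response and title series both enter.

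**Figure D4:**
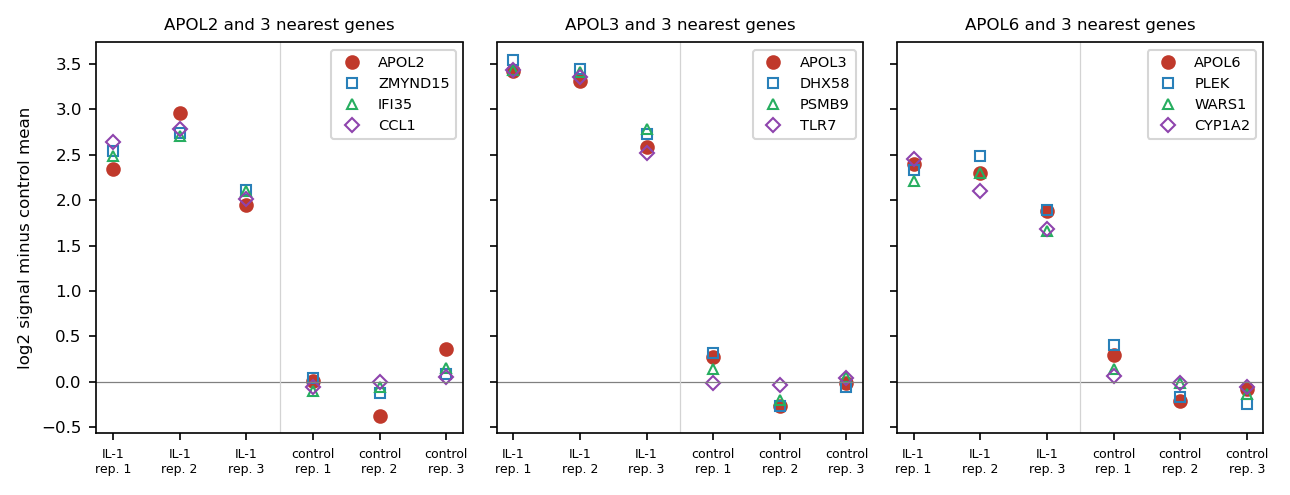
Log2 signal minus the gene's control mean on each IL-1 array (left) and control array (right) for APOL2, APOL3 and APOL6 (red) and the 3 genes nearest to each (open symbols). In each panel the IL-1 arrays lie at 1.66 or higher and IL-1 replicate 3 is the lowest of them.

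Markers of other cell types were read in both groups, and their part in the APOL results was not tested. The summed normalized signal of 5 endothelial markers was 263 to 304 with IL-1 and 327 to 358 in controls, and of the 5 PECAM1, CDH5 and KDR were not well above background on any array. That of 6 leukocyte markers was 293 to 531 with IL-1 and 377 to 555 in controls, with PTPRC, CD3E, CD14 and ITGAM not well above background on any array. LYZ was well above background on 1 IL-1 array and averaged 6.12 with IL-1 and 5.54 in controls; ITGAM averaged 4.87 and 4.56 in that order, without overlap. The 5 epithelial markers summed to 263 to 314 with IL-1 and 324 to 417 in controls, and KRT18 averaged 5.90 with IL-1 and 6.85 in controls (limma adjusted p = 0.0644, or 0.00337 with title series as a block). None of 4 hepatocyte markers was well above background. Among endothelial and leukocyte markers 3 were tested. The difference was -0.62 for VWF, 0.01 for TEK and -0.54 for CSF1R (limma adjusted p = 0.235, 0.992 and 0.483). With title series as a block VWF and CSF1R passed as lower with IL-1 (limma adjusted p = 0.0164 and 0.00217). In that fit, which also gave the second KRT18 value, 19.6% of all kept probes fell, so these calls do not set the markers apart.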

How the data were processed

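Each of 6 arrays has, per the file headers of the authors' deposited table, a column of signal intensity and one of detection p-values over 48784 probes; no background correction or normalization is stated in it. Log2 values of the same arrays make up the authors' series matrix; lumi is named, per the submitters' processing notes, and its settings are not given in the sources used here. Those log2 values correlated with log2 of the deposited signals at 0.983 to 1.00 per array. Their array medians were 5.86 to 5.87 on the Allstars arrays and 6.49 and 6.50 on the Sample arrays. They were thus not level across the 2 kinds of title, and the fit on them held no block. Whether they were centred within each kind stays unknown.

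The neqc function (limma 3.58.1, R 4.3.3) corrected the background by normexp, added an offset of 16 and quantile normalized the arrays. The 13017 probes that were detected (p under 0.01) on 3 or more arrays entered lmFit and eBayes (trend on), with two-sided p-values adjusted over them by Benjamini-Hochberg. The fit held treatment only. For other genes the kept probe with the highest mean stood for its gene. Probes were named by the platform annotation of GEO (28085 probes with 1 gene, 13 with several, 20686 unlisted), and all 13 APOL accessions were found among RefSeq transcripts (GRCh38.p14). Precision is limited by there being 3 arrays per group. The fit was tested on simulated data.

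Members and lists were chosen with earlier results of these data known. Named were each APOL probe, up to 3 called genes per list and direction with the largest change, called neighbours, the 3 nearest genes in pattern, and NFKBIA, IRF1, IRF9, IFNB1, APOE and APOLD1 whatever their values. Genes of the lists without a named probe, and promoter and protein sequences, were not analysed here. Alternatives covered background, scaling, offset, filter, the authors' values, variance trend, blocks, single title series and leaving out each array.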

Additional observations from a re-analysis of the deposited data

Results flagged for a closer look

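The APOL4 probe ILMN_1704682, which the detection filter left out of the test, reached a log2 signal of 6.37 on IL-1 replicate 2, with a detection p of 0.00659. The control arrays lay between 4.74 and 5.64, none of them well above background, and the other IL-1 arrays were at 5.05 and 4.90. It is given here because it is the APOL probe outside the test that was well above background on an IL-1 array and on no control array.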

How the results depend on the processing

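The 4 APOL probes kept their direction under every alternative run, and the counts of 4 probes and 3 genes that rose stayed within 1.5 times. Only APOL2 ILMN_2325337 lost its call: its log2 fold change was 1.56 with equal array medians, and between 1.68 and 2.23 over the fits that left out 1 array. On the Sample arrays alone APOL3 differed by 2.59 and APOL2 by 1.58 and 1.23. No APOL probe was well above background on all 6 arrays, so that filter gave no APOL value. No detection filter with title series as a block, an alternative chosen after seeing the data, gave 5 APOL probes and 4 genes that rose. The added probe was APOL1 ILMN_1688631, with a difference of 0.11 and a detection p of at least 0.814 on every array. Over all kept probes the median log2 fold change was -0.10, and -0.22 with equal array medians. The count of probes that rose was 743 and that of probes that fell 310. With equal medians these were 218 and 8, with the replicate number as a block 1640 and 2690, with title series as a block 1602 and 2554, on Allstars arrays alone 1400 and 1888, and without a filter under that block 1425 and 1518. The authors' values gave 189 that fell, no filter 158, and detection on all 6 arrays 462 that rose. Leaving out 1 array gave 473 to 803 that rose and 69 to 391 that fell. The causes were not tested. Same-numbered samples deviated together (r = 0.52, 0.53 and 0.82), but so did differently numbered Allstars samples (r = 0.48 and 0.46). An Allstars sample against the Sample array of the other group gave r between -0.66 and -0.61. Deviations within a group cancel and each group has 1 Sample array, so these values do not tell pairing from title series. The titles number only the Allstars pairs. The replicate block changed no APOL call. Signals near background limit APOL1, APOL4 and APOL5.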
